A study of Mus musculus with 2 samples.

Results

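The genes described here are 10 mouse genes of stem and progenitor transcription factors and cofactors: the GATA factor genes Gata1, Gata2 and Gata3, the repressor genes Gfi1 and Gfi1b, Myb, the PR-domain genes Mecom and Prdm16, and the cofactor genes Zfpm1 and Ldb1. They were taken by name, as regulators outside the ETS, RUNX, HOX and bHLH families, out of 21523 protein-coding genes, and all 10 were found in the gene table. The measurement is a list of 3153 binding peaks of FLAG-tagged HLF (hepatic leukemia factor) from 1 chromatin immunoprecipitation sequencing library, in which DNA bound by the tagged protein was recovered with an anti-FLAG antibody. The cells were Lin-Sca-1+c-Kit+ cells, a fraction rich in haematopoietic stem and progenitor cells, of C57BL/6 mice aged 8 to 10 weeks, with blood as the labelled tissue. They received 3xFLAG-HLF on the MigR1 retroviral vector (transgene label MigR1 3xFLAG-HLF/HLF) and grew in culture for 5 days with IL-3 (5 ng/ml), SCF (50 ng/ml) and, both at 10 ng/ml, Flt3L and IL-7. The other group, cells of the same strain, age and culture given the empty MigR1 vector, was not analysed here. HLF was thus supplied from a viral vector, not from its own gene, and a peak list holds no expression values with which the cell label or the activity of any gene could be checked. Each group is 1 library with no replicate, and the list carries no height, score or read count, so depth is unknown and a missing peak means only that none was listed.

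HLF belongs to the PAR bZIP family, whose members bind DNA as dimers at palindromic sites close to TTACGTAA. The factors encoded by the 10 genes have roles in blood formation, some of them in different lineages. GATA1 and GATA2 bind WGATAR sites, GATA1 driving erythroid and megakaryocytic genes and GATA2 maintaining stem and progenitor cells, while GATA3 directs T cell and innate lymphoid development. GFI1 and GFI1B are related zinc finger repressors, the former prominent in stem cells, neutrophils and lymphocytes and the latter in erythroid cells and megakaryocytes. MYB sustains proliferating progenitors, MECOM (also called EVI1) and PRDM16 support stem cell maintenance, the Zfpm1 product FOG1 is a partner of GATA1, and LDB1 bridges DNA-bound complexes that contain GATA factors.

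A peak's position was taken as the centre of its interval, and a gene was counted when a centre lay in its body or within a set distance of its ends. Of the 10 genes, 1 (Myb) had a peak in its body, against 6.94% of all protein-coding genes. With 20 kb added on each side the count was 2 (Myb and Gfi1b), against 15.3% of all protein-coding genes. With 100 kb it was 5 (Gata2, Gata3, Gfi1b, Myb and Zfpm1), against 36.9%. Each count lies within 2 genes of what the background share gives for 10 genes, so none is a result about these genes as a set. The 5 genes with no peak within 100 kb were Gata1, Gfi1, Mecom, Prdm16 and Ldb1.

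**Figure D1:**
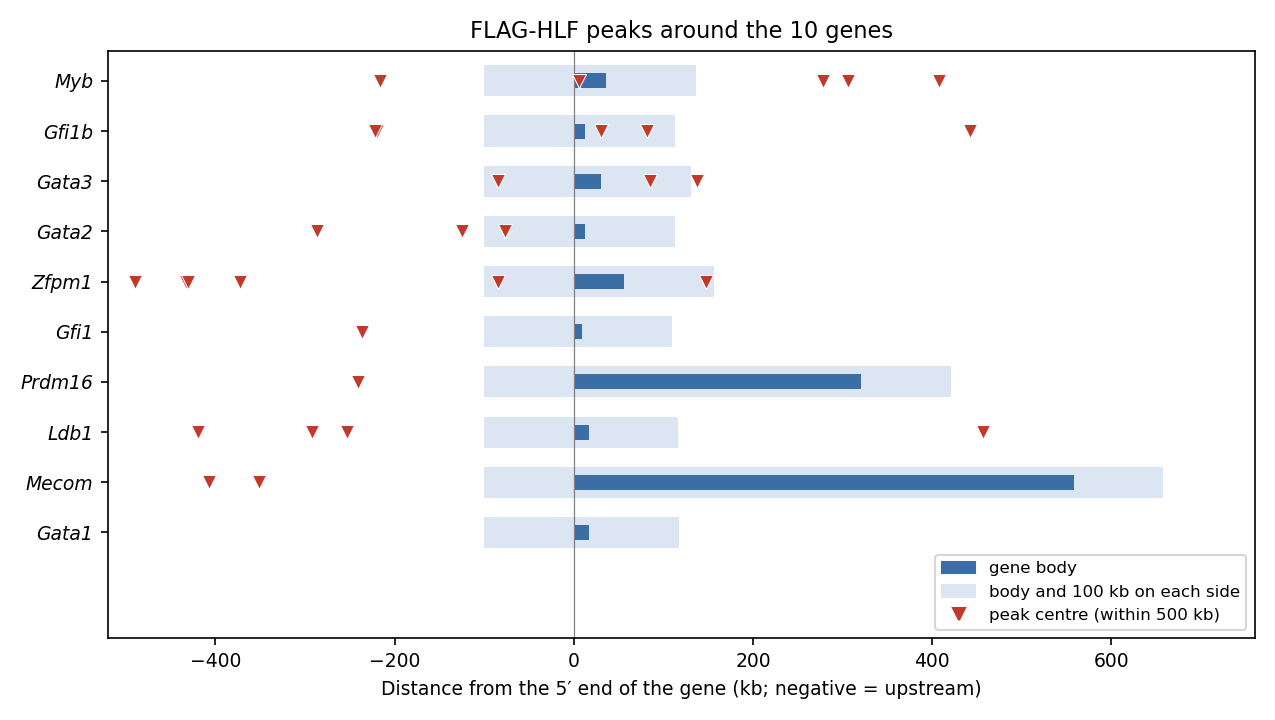
Each row is 1 gene, aligned at its 5′ end and drawn in the direction of transcription, with distance in kb on the horizontal axis. Dark bars are gene bodies, pale bars reach 100 kb beyond both ends, and triangles are FLAG-HLF peak centres within 500 kb of the gene; Myb is the only row with a triangle on the dark bar, and Gata1 has no triangle.

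In all, 8 distinct peaks lay in or within 100 kb of these genes. Of these, 1 was inside a member, 3 were upstream and 4 downstream. Another protein-coding gene held 4 of the 8, and 3 lay outside protein-coding genes. The member was the nearest protein-coding gene for 2 of the 8, one at Myb and one at Gata3, and another gene lay nearer to the other 6. No member shared a peak within 100 kb with another member.

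No peak overlapped a transcription start of a member. RefSeq (GRCm38.p6, whose chromosome coordinates are those of mm10) gives 15 start windows for the 10 genes, each reaching from 250 bases before the start to 50 bases after it. None of the 15 overlapped a peak, as against 177 of 21045 windows of protein-coding genes (0.841%). The windows of Myb and Gfi1b are shown because these are the 2 members with a peak within 20 kb, and that of Gata2 as an example of a start whose peaks within 500 kb all lie far upstream. They run 5′ to 3′ on the minus strand for Myb (chr10:21160935-21161234) and Gfi1b (chr2:28621933-28622232), and on the plus strand for the distal of 2 Gata2 starts (chr6:88193641-88193940). Capitals mark GTAA, either arm of the palindromic PAR bZIP site, on both strands (TTAC on the strand shown).
Myb: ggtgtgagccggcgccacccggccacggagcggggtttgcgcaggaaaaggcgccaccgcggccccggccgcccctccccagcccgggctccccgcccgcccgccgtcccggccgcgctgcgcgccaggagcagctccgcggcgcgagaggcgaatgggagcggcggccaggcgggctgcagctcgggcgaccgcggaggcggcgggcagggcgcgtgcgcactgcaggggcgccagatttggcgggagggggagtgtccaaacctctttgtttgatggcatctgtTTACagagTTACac
Gfi1b: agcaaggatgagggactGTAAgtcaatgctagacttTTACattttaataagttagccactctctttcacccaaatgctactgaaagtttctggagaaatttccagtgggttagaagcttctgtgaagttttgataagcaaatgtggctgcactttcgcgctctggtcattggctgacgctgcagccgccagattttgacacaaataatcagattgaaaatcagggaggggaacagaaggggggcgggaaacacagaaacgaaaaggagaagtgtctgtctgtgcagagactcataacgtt
Gata2: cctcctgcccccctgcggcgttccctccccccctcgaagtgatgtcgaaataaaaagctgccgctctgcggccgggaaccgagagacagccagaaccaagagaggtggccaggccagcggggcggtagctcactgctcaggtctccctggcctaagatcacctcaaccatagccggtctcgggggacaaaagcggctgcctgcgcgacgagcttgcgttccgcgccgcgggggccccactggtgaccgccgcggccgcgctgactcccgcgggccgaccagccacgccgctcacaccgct

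The full sites TTACGTAA and TTATGTAA, each of which contains GTAA, were searched on both strands and occurred in 0 of the 15 member windows. Over all protein-coding start windows 1.04% held either site, and of the 177 windows that overlapped a peak 12 did (6.78%). GTAA alone occurred in 4 of the 15 windows, one each of Myb, Gfi1b, Gata1 and Mecom, against 61.5% of all windows. In the Myb window it occurred as TTAC at 2 places, both after the start; in the Gfi1b window at 2 places, both near the far upstream end. The distal Gata2 window held none. The sequence under the peaks themselves was not used here, so these counts describe the start windows and not the bound intervals.

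Among the sequence-specific activators, Myb was the gene closest to a peak. Myb (gene ID 17863; chromosome 10, 21124930 to 21160984, minus strand, 36.1 kb) held 1 peak at 21154782 to 21155181, centred 6003 bp downstream of the gene's 5′ end and of its listed start. No other protein-coding gene lay within 20 kb of this peak. It stood alone: the next peaks were 216 kb upstream, 0.418 kb outside Aldh8a1, and 242, 270 and 372 kb downstream of the 3′ end, beyond Ahi1. The interval between Myb and the upstream neighbour Hbs1l, which is known to carry distal Myb enhancers in erythroid cells, held no peak. Of the 5057 protein-coding genes 30 to 100 kb long, the length class of Myb, 10.6% had a peak in the body. Exons and introns were not used here, so the peak is placed only as lying inside the gene.

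Gata2 (gene ID 14461; chromosome 6, 88193891 to 88207032, plus strand, 13.1 kb) had no peak nearer than 76.7 kb. One peak lay upstream at 88116990 to 88117389, centred 76.7 kb from the distal start and 81.5 kb from the proximal one. It was in no gene, and no protein-coding gene stood between it and Gata2. The nearest protein-coding gene was Rpn1, a subunit gene of the oligosaccharyltransferase, 11.9 kb away on the other side. Another peak, at 88068761 to 88069160, lay 125 kb upstream, beyond Rpn1 and 15.5 kb from it, and the last was 287 kb upstream inside Copg1. All 3 peaks within 500 kb of Gata2 were upstream of the gene. A far upstream enhancer of Gata2 active in progenitors is known between Gata2 and Rpn1, and in human leukaemias with chromosome 3 rearrangements its counterpart is moved next to MECOM; its coordinates are not in the files used, so whether the peak overlaps it was not tested.

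Gata3 (gene ID 14462; chromosome 2, 9857078 to 9887953, minus strand, 30.9 kb) had peaks on both sides within 100 kb. The nearer was 54.3 kb beyond the 3′ end at 9802609 to 9803008, in no gene, with Gata3 the nearest protein-coding gene. The other was 84.1 kb upstream at 9971902 to 9972301, inside Taf3, which encodes a TFIID subunit. A further peak lay 107 kb beyond the 3′ end at 9750254 to 9750653, just outside the 100 kb limit, and again had Gata3 as its nearest protein-coding gene. These were the only peaks within 1 Mb of Gata3.

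Gata1 (gene ID 14460; X, 7959260 to 7976663, minus strand, 17.4 kb) was the most isolated of the 10 genes. Its nearest peak was 5.68 Mb upstream inside both Cask and Gpr82, and 98.8% of protein-coding genes had a nearer one. The X chromosome carried 25 peaks in all. Of its 963 protein-coding genes, 6.44% had a peak within 100 kb and 70.4% had none within 1 Mb, so an X-linked gene without a peak is the usual case in this list. The 3 GATA genes expressed in blood therefore had 0, 1 and 2 peaks within 100 kb, for Gata1, Gata2 and Gata3 in that order.

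The paralogous repressor genes differed in their nearest peak. Gfi1b (gene ID 14582; chromosome 2, 28609450 to 28621982, minus strand, 12.5 kb) had 1 peak 17.9 kb beyond its 3′ end, at 28591350 to 28591749 and 30.4 kb downstream of its start. That peak lay in no gene, and Gtf3c5, which encodes a TFIIIC subunit, was nearer at 8.27 kb. A second peak, 69.3 kb beyond the 3′ end at 28539979 to 28540378, was inside Ralgds, with Cel and Gtf3c5 between it and Gfi1b. On the upstream side the nearest were a pair 220 and 222 kb away inside Ddx31, 1.75 kb apart. Gfi1 (gene ID 14581; chromosome 5, 107716655 to 107725805, minus strand, 9.15 kb) had 1 peak within 500 kb, 236 kb upstream inside Dipk1a, with Evi5, Rpl5 and Ube2d2b between. With 1 library, whether the 2 loci differ beyond the error of peak detection was not tested.

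Mecom and Prdm16 are the longest of the 10 genes and held no peak. Mecom (gene ID 14013; chromosome 3, 29951296 to 30509759, minus strand, 558 kb) had its nearest peak 351 kb upstream of the distal start, inside Gpr160, with 7 protein-coding genes between, and the next 407 kb upstream inside Phc3, a Polycomb gene. From the proximal start, which lies inside the gene, the nearest peak was 848 kb away. Prdm16 (gene ID 70673; chromosome 4, 154316122 to 154637360, minus strand, 321 kb) had its nearest peak 241 kb upstream inside Mmel1. Of the 557 protein-coding genes of 300 kb and over, 24.1% had a peak in the body and 34.8% had one within 100 kb. A long gene without a listed peak was thus the more common outcome.

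The cofactor genes Zfpm1 and Ldb1 had the highest numbers of peaks within 1 Mb of the 10 genes, 12 and 8. All protein-coding genes had a median of 4 and an upper quartile of 6 at this distance, which was chosen after the values were seen. Within 100 kb Zfpm1 had 2 peaks and Ldb1 had 0. Zfpm1 (gene ID 22761; chromosome 8, 122281856 to 122337862, plus strand, 56.0 kb) had a peak 84.2 kb upstream at 122197417 to 122197816, inside the neighbouring Zfp469 with no protein-coding gene between. Another lay 92.3 kb downstream at 122429961 to 122430360, inside Cyba, which encodes the p22phox subunit of the phagocyte NADPH oxidase, with 4 protein-coding genes between. This Cyba peak was also within 20 kb of Mvd, Il17c and Zc3h18. Of all protein-coding genes, 2.12% had at least as many peaks within 1 Mb as Zfpm1, and 7.45% at least as many within 500 kb. Zfpm1 is singled out here as the highest of the 10 genes at both distances, and it had no peak within 20 kb. Of the 6 peaks within 500 kb of Zfpm1, 4 formed a group 372 to 490 kb upstream. One of these was 1.68 kb outside Slc7a5, an amino acid transporter gene.

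Ldb1 (gene ID 16825; chromosome 19, 46031525 to 46048145, minus strand, 16.6 kb) had no peak within 100 kb. Its nearest was 253 kb upstream inside Nfkb2, a gene of the NF-kB family, with 5 protein-coding genes between. Another lay 292 kb upstream, 1.25 kb outside Cuedc2. Within 500 kb Ldb1 had 4 peaks, fewer than the 5 each of Myb and Gfi1b. At that distance the 10 genes ranged from 0 at Gata1 to 6 at Zfpm1, and all protein-coding genes had a median of 2 and an upper quartile of 3. Over all protein-coding genes the median number of peaks within 1 Mb was 4, and the 10 genes ranged from 0 at Gata1 to 12 at Zfpm1.

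Ordered by the distance from the gene to its nearest peak, the members ran from Myb (inside), Gfi1b (17.9 kb), Gata3 (54.3 kb), Gata2 (76.7 kb) and Zfpm1 (84.2 kb) to Gfi1 (236 kb), Prdm16 (241 kb), Ldb1 (253 kb), Mecom (351 kb) and Gata1 (5.68 Mb). Their median was 160 kb, as against 179 kb over all protein-coding genes. A peak as near as that of Gfi1b was found at 14.6% of protein-coding genes, as near as that of Gata3 at 25.7%, as near as that of Gata2 at 31.4% and as near as that of Zfpm1 at 33.3%. Without replicates the order carries no spread, and neighbours in it such as Gfi1, Prdm16 and Ldb1 are not told apart by it.

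**Figure D2:**
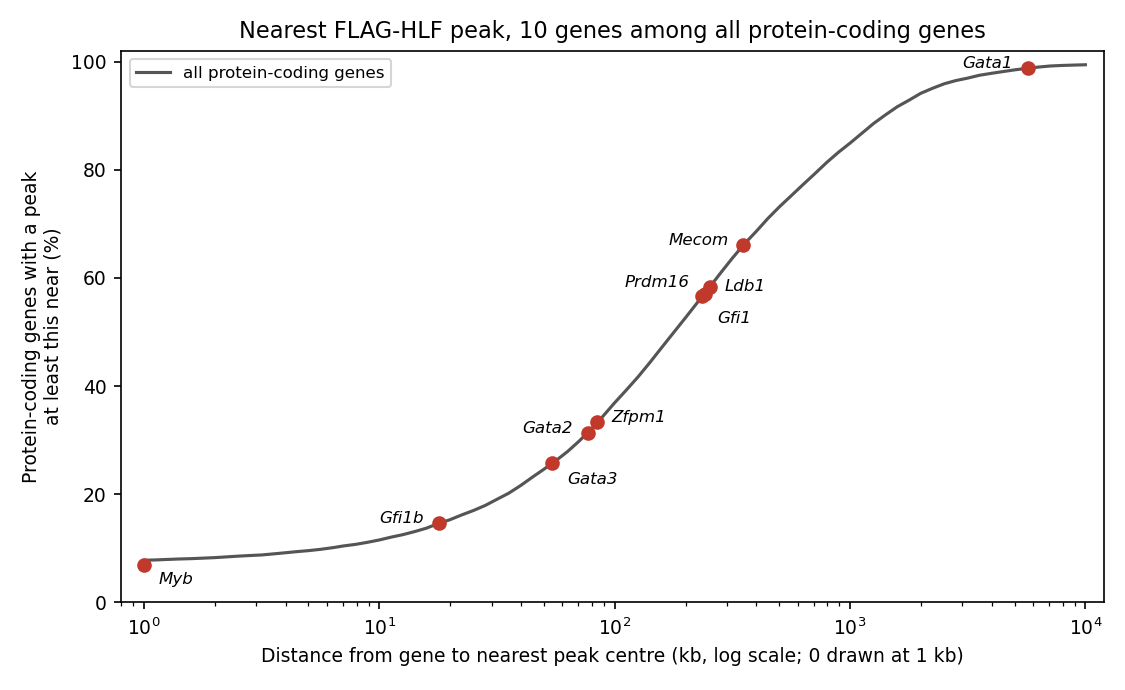
The curve gives the percent of all protein-coding genes (vertical axis) whose nearest FLAG-HLF peak centre is at or within the distance on the horizontal log axis in kb; points are the 10 genes, with Myb, which holds a peak, drawn at 1 kb. The points run the length of the curve, from Myb at 6.94% and Gfi1b at 14.6% to Gata1 at 98.8%.

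Genes linked to these factors were described with the same distances. Of 20 relatives in the same families, 1 had a peak in the body, 2 within 20 kb and 7 within 100 kb. These are 5.0%, 10.0% and 35.0%, beside 6.94%, 15.3% and 36.9% of all protein-coding genes. With 20 genes these counts lie near the background share, so none is a result about the relatives. Prdm10, a PR-domain gene, held a peak 7.14 kb inside a gene end, and Prdm9, whose product places meiotic recombination sites, had one 14.0 kb away. The other GATA genes had none within 20 kb: the nearest peak was 75.7 kb from Gata5, 200 kb from Gata4 and 406 kb from Gata6. Zfpm2 and Ldb2, the paralogues of Zfpm1 and Ldb1, had their nearest peaks 508 and 553 kb away. Those of Mybl1 and Mybl2 were 3510 and 334 kb away.

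Another list held 20 genes of partners of these factors in protein complexes. Of these 20, 2 had a peak in the body, 5 within 20 kb and 12 within 100 kb. The shares were 10.0%, 25.0% and 60.0%, beside 6.94%, 15.3% and 36.9% of all protein-coding genes. Chd4, the ATPase gene of the NuRD complex, held a peak 16.8 kb inside a gene end and Mta2, another NuRD subunit gene, had one 13.6 kb outside. Rcor1, whose product CoREST links GFI1 proteins to the demethylase LSD1, had one 2.92 kb outside, while Kdm1a, the gene of LSD1, had its nearest 304 kb away. Tcf12, an E-protein gene, held a peak 30.6 kb inside, and Lmo2, a bridge between LDB1 and the E-protein and SCL dimer, had its nearer peak 10.8 kb outside. Tal1, the SCL gene, had none within 100 kb (nearest 657 kb) and Lyl1, its relative, had 1 at 21.3 kb.

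Of 24 genes known as targets of these factors, 3 had a peak in the body, 6 within 20 kb and 15 within 100 kb, or 12.5%, 25.0% and 62.5%, beside the same 6.94%, 15.3% and 36.9%. Vwf, a megakaryocyte and endothelial gene, held 2 peaks, 42.1 and 65.1 kb from its nearer end, and Cpa3, a mast cell protease gene and GATA2 target, held 1 at 7.42 kb. Nfe2, an erythroid and megakaryocytic transcription factor gene, held 1 at 0.019 kb from a gene end. Mpo, Elane and Cd34 made up the 6, with their nearest peaks 3.56, 8.36 and 16.4 kb outside the gene. Of the other erythroid genes on the list, Epor, Slc4a1, Klf1 and Alas2 had their nearest peaks 21.9, 28.2, 176 and 926 kb away. The peak counted within 100 kb for Slc4a1 was shared with Itga2b, and that of Il4 with Il13. The shares of the partner and target lists were above those of all protein-coding genes under each of the 3 distance rules. This difference was not tested, and the rules are nested, so the 3 comparisons are not independent. The lists were written with earlier results of these data known, so the higher shares are not read as a result about them.

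**Figure D3:**
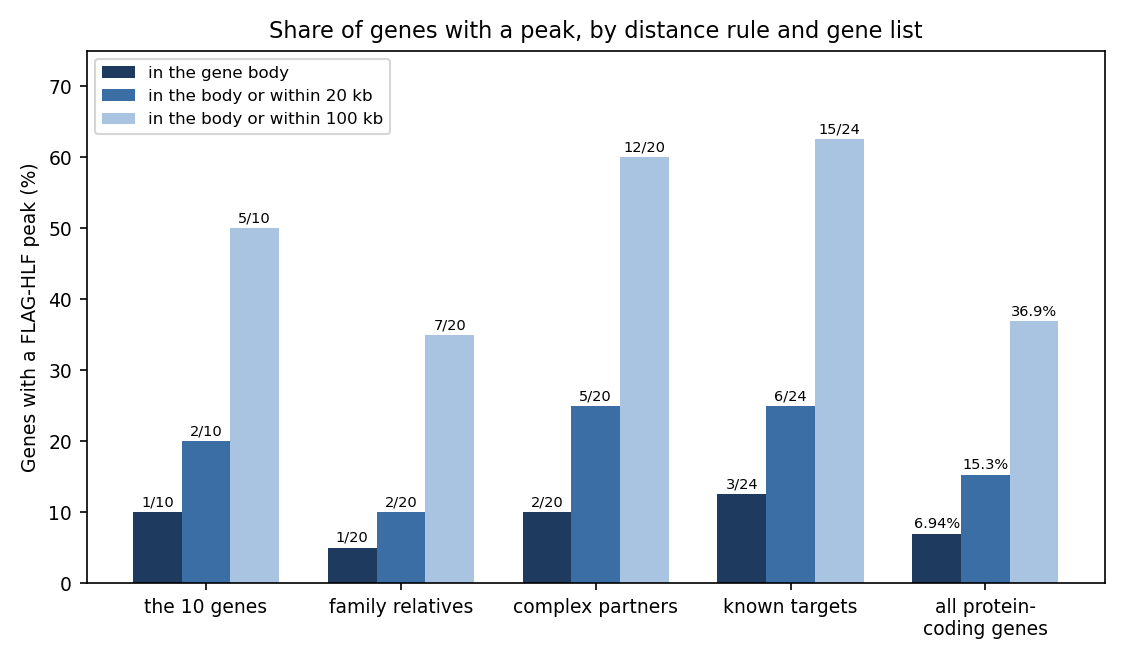
Bars give the percent of genes with a FLAG-HLF peak centre in the body (dark), in the body or within 20 kb (middle) and in the body or within 100 kb (pale), with counts of genes above the bars. The 10 genes stand at 1, 2 and 5 of 10, the family relatives at 1, 2 and 7 of 20, and all protein-coding genes at 6.94%, 15.3% and 36.9%.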

How the data were processed

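Peak positions of 1 FLAG-HLF library were used; the empty-vector library was not analysed here. The deposited list holds only chromosome, start and end, with every interval 400 bp wide, and no score or other measured value. Bowtie2 2.0.6, MACS2 2.0.10 and mm10 are named in the submitters' processing notes; not given in the sources used here are their roles, the peak threshold and the use of the control library. A uniform width hides how far enrichment reached, so positions are centres (start plus 200). Genes came from a RefSeq table of GRCm38.p6 with 49997 rows, of which 49214 on the 19 autosomes and X with a start of at least 3 Mb were kept. Strands and start windows came from the RefSeq promoter table. Distances run from the nearer gene end. A peak was counted for every gene whose region held it. No test was made, since 1 library has no replicate; shares over all protein-coding genes serve as background. All 10 genes and every peak within 100 kb of them are named, as is every gene of the 3 related lists with a peak within 20 kb; the other genes of those lists, and peaks farther away, were chosen after their values were seen. The members and lists were chosen with earlier results of these data known. Counting was tested on simulated data. Python 3.11.15, pandas 2.3.3, numpy 2.4.6 and matplotlib 3.10.9 were used.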

Additional observations from a re-analysis of the deposited data

How the results depend on the processing

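The count of members with a peak in the body (Myb) and all counts made with any base of the peak, or with peaks closer than 1 kb merged, were as given above. At 20 kb, the members and the distinct peaks both fell from 2 to 1, leaving Myb, with a window of 10 kb and when a peak was given only to its nearest protein-coding gene. The same values of 1 came from distances to listed starts, an alternative chosen after seeing the data. At 100 kb, the members fell from 5 to 2 and the peaks from 8 to 2 with a window of 50 kb (Gfi1b and Myb) or the nearest gene (Gata3 and Myb). Windows of 40 kb and 200 kb gave the same 2 and 5 members; at 200 kb the peaks numbered 10. From listed starts the 100 kb counts were 5 members and 7 peaks. Over every annotated gene in place of protein-coding genes, the background was 3.78% in bodies, 10.8% at 20 kb and 29.4% at 100 kb. A stricter peak threshold was not run, since the list has no score. No paired analysis was possible because there is 1 peak list, so leaving out a replicate was not possible either. Read depth is unknown, so weak binding at the 5 genes without a peak within 100 kb was not detectable from this list.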
